A study of Homo sapiens with 2 samples.

Results

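The genes described here encode enzymes that add acetyl groups to lysines of histones and other proteins, or remove them, and that act with the transcription factor YY1, together with their paralogs. The set was defined by 10 gene symbols: the acetyltransferases KAT2A, KAT2B, EP300, CREBBP and KAT5, the zinc-dependent deacetylases HDAC1, HDAC2, HDAC3 and HDAC5, and the NAD-dependent deacetylase SIRT1. Probe sets, called probes here, with 9 of these symbols were found among 17687 named genes, each gene with 1 probe. No probe in the annotation used was named EP300, so EP300 is not analysed here.

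The cells were SW48, a long-established line from a human colorectal cancer, and their RNA was read on whole-transcript GeneChip arrays. One culture received an siRNA against YY1 (siYY1) and the other a commercial negative control siRNA (siControl), each at 5 nmol/L and delivered by lipid transfection, and total RNA was taken after 3 days. Each group had 1 array, and the knockdown rested on 1 siRNA. No test was possible and no value below has a replicate error. Levels are the deposited log2 values, and a difference is the siYY1 level minus the siControl level.

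Acetyltransferases take the acetyl group from acetyl-CoA, and acetylation of histone tails loosens their hold on DNA and is read by bromodomain proteins. Deacetylases reverse the mark, and HDAC1, HDAC2 and HDAC3 do so as catalytic subunits of corepressor complexes. YY1 is a zinc finger protein that can activate or repress: it binds p300, CBP and KAT2B as well as HDAC1, HDAC2 and HDAC3, and its own lysines are acetylated and deacetylated by some of these enzymes.

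The arrays had nearly the same distribution, with medians over all 21448 probes of 7.10 in siYY1 and 7.11 in siControl. YY1 itself is not analysed here, so the extent of its knockdown is not given. A filter kept the 8844 genes whose mean over both arrays reached 7.54, the median over named genes. Of 11 colon epithelial markers measured, 7 were kept, among them EPCAM (16.24 in siYY1 and 16.04 in siControl), CDH1 (13.57 in siYY1 and 13.55 in siControl) and CDX2 (12.06 in siYY1 and 11.91 in siControl). Of the 7 kept, 4 were higher in siYY1 and 3 lower. The lower ones were KRT19 (difference -0.34), KRT18 (-0.20) and CDH17 (-0.02). The 4 markers not kept, CDX1, VIL1, GPA33 and LGALS4, lay under the filter on both arrays, and KRT20 is not analysed here. Among markers of other cell types, 1 of 7 fibroblast genes was kept (COL1A2, 9.05 in siYY1 and 8.60 in siControl), as were 1 of 7 leukocyte genes (CD68, 7.64 in siYY1 and 8.72 in siControl) and 1 of 6 endothelial genes (ENG, 12.43 in siYY1 and 12.17 in siControl). The log2 values summed over each of these lists were 35.8, 40.2 and 33.8 in siYY1, against 36.6, 39.9 and 33.8 in siControl. Of the genes summed, 6, 6 and 5 were under the filter, so these sums do not measure the amount of other cell types. The part of these genes in any result below was not tested.

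The sequences just upstream of the KAT2 paralogs are shown because KAT2B and KAT2A differed more from each other than the paralogs HDAC2 and HDAC1 did. They come from RefSeq on build GRCh38.p14, each covering the 250 bases before the annotated start in the direction of the gene, with CG dinucleotides in capitals. KAT2B lies on the plus strand and the stretch is chr3:20040196-20040445. KAT2A lies on the minus strand and the stretch is chr17:42121368-42121617.
KAT2B: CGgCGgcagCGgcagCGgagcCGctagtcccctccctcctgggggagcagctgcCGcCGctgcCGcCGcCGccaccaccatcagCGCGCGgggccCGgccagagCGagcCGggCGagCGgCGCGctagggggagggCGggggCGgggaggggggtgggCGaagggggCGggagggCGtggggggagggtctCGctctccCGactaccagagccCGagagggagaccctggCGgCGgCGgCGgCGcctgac
KAT2A: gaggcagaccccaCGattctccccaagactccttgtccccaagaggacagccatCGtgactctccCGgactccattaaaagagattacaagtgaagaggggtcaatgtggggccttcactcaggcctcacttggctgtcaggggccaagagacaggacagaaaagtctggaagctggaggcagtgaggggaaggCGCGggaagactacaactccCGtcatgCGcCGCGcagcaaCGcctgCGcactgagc
The KAT2B stretch holds 33 CG dinucleotides and is 80.8% G or C, whereas the KAT2A stretch holds 11 and is 58.8% G or C. Both lack the YY1 site described next.

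Promoter windows of 300 bases, 250 before and 50 after the start, were at hand for 8 of the 9 measured genes, HDAC5 being the exception. The YY1 site was searched as GCCATNTT on either strand, which reads AANATGGC on the other strand. It occurred in the windows of CREBBP and KAT5 and in no window of KAT2A, KAT2B, HDAC1, HDAC2, HDAC3 or SIRT1. Among the 14250 named genes with a window, 7.92% held it. Both matches are shown on the strand of the gene, with the site in capitals. That of CREBBP lies at chr16:3880687-3880694, on the minus strand of the build, and starts 20 bases into the transcript. That of KAT5 lies at chr11:65712265-65712272, and starts 14 bases into the transcript. CREBBP carries the site in the direction of the gene, whereas in KAT5 it is in reverse, so that the gene's own strand, the plus strand of the build, reads its reverse complement.
CREBBP: caacagccGCCATCTTgtcgcgga
KAT5: agggagggAAGATGGCggaggtgg
CREBBP and KAT5 were both lower in siYY1, as given below. Among the enzymes with a window and no site, KAT2A, HDAC1, HDAC3 and SIRT1 were also lower, and KAT2B and HDAC2 higher. The median difference was 0.02 over the 875 kept genes with the site and 0.00 over the 6587 without it. Lower values in siYY1 made up 47.2% of the genes with the site and 50% of those without. Beyond a 1.5-fold change lay 21 higher and 32 lower genes with the site, beside 199 higher and 246 lower genes without it. Whether the site had a part in any of these differences was not tested. The shorter central tetranucleotide CCAT was found in 74% of all windows and in all 8 of these, so it set none of them apart. The CG count per window ranged from 18 in KAT2A to 40 in KAT2B, with a median of 29.5 over the 8 windows and of 22.0 over all windows. A match describes letters and is no evidence of binding in these cells. For CREBBP, 2 windows were listed and the first was used.

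Of the 8 kept enzymes, 1 was at least 1.5-fold higher in siYY1 (KAT2B) and 0 were at least 1.5-fold lower. Over all kept genes, 3.04% were at least 1.5-fold higher, 3.78% at least 1.5-fold lower and 6.82% past this fold in either direction. A count of 1 in 8 is too small to set against that share. It also depends on the filter, since KAT2B was kept only through its siYY1 value. The direction was lower for 6 of the 8 and higher for KAT2B and HDAC2. Of all 8844 kept genes, 4390 were lower and 4454 higher. The median difference of the 8 enzymes was -0.09, beside 0.00 over all kept genes. The remaining measured enzyme, HDAC5, was under the filter on both arrays and had the largest negative difference of the 9.

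**Figure D1:**
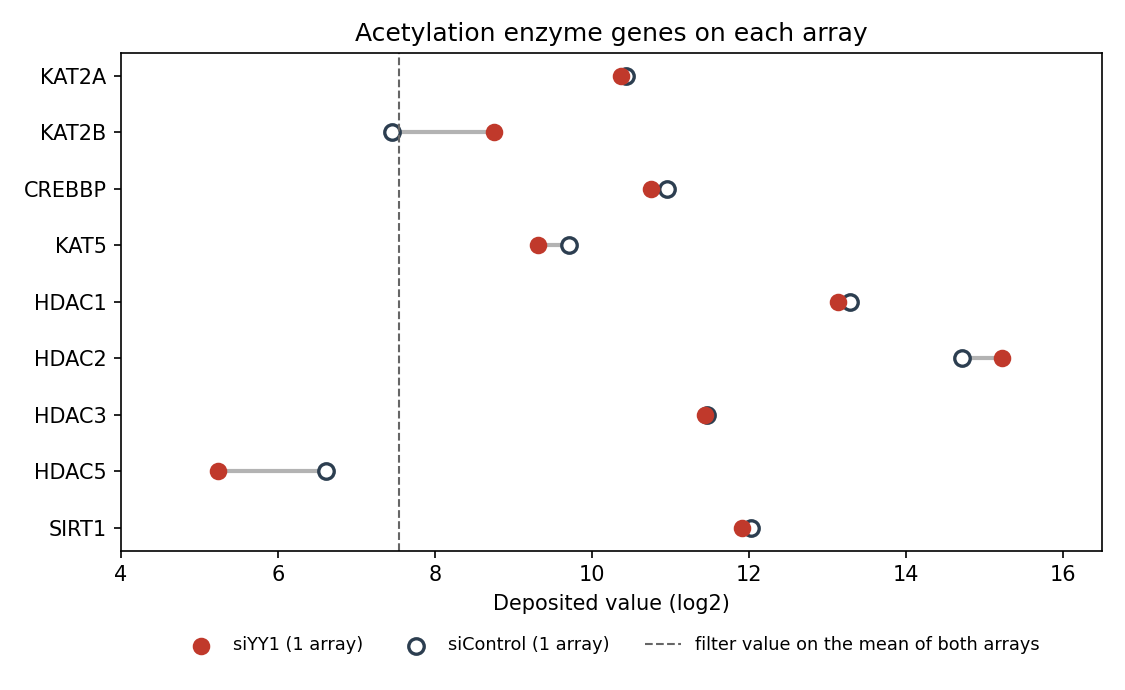
Deposited log2 value (x axis) of the 9 measured acetylation enzyme genes (y axis) in siYY1 (filled red circles) and siControl (open circles), 1 array each, with the grey bar joining the arrays and the dashed line at the filter value of 7.54. KAT2B and HDAC5 have the longest bars and run in opposite directions, HDAC2 and KAT5 have shorter ones, and the other 5 genes lie within 0.22 of their siControl value. Values of different genes come from different probes and are not compared with each other.

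KAT2B, also known as PCAF, is an acetyltransferase of the GNAT family that acetylates histone H3 and many transcription factors. Its level was 8.75 in siYY1, against 7.46 in siControl, a difference of 1.29 or 2.45-fold. In siYY1 KAT2B was above the filter value and in siControl it was just under it. Whether the siControl value exceeds background is not known, so the size of the fold is uncertain. KAT2B was kept only through its siYY1 value, so its place among kept genes describes it and is no support. Of the 8844 kept genes, 10, KAT2B included, had a positive difference of this size or larger, and 0.373% were at least 2-fold higher.

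KAT2A, or GCN5, is the close paralog of KAT2B, and the SAGA and ATAC complexes contain either one or the other as their catalytic subunit. KAT2A was at 10.37 in siYY1, against 10.44 in siControl, a difference of -0.07. The difference of KAT2B exceeded that of KAT2A by 1.36 on the log2 scale. The paralogs therefore did not move together on these arrays, and the higher KAT2B value was not accompanied by an equally lower KAT2A value.

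CREBBP encodes CBP, the paralog of p300 and a coactivator that acetylates histone H3 at enhancers. Its level was 10.75 in siYY1, against 10.96 in siControl, a difference of -0.21. A negative difference at least this large was found in 22.3% of kept genes, so the value of CREBBP was well within the spread of all genes.

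KAT5, or TIP60, is the MYST family catalytic subunit of the NuA4 complex and takes part in the response to DNA breaks. It was at 9.31 in siYY1, against 9.70 in siControl, a difference of -0.40, or 1.32-fold lower. A total of 9.68% of kept genes had a negative difference of this size or larger. KAT5 and HDAC2 were, with KAT2B, the 3 kept enzymes past 1.3-fold, a line crossed by 19.6% of kept genes.

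HDAC1, HDAC2 and HDAC3 are the class I deacetylases of the set. HDAC1 and HDAC2 are close paralogs that share the SIN3, NuRD and CoREST complexes, and HDAC3 works in the NCOR and SMRT complexes. HDAC2 was at 15.23 in siYY1, against 14.71 in siControl, a difference of 0.51 or 1.43-fold. HDAC1 was at 13.13 in siYY1, against 13.29 in siControl, a difference of -0.15. HDAC3 was at 11.44 in siYY1 and 11.46 in siControl, a difference of -0.02. HDAC2 was thus the higher one in siYY1 while HDAC1 and HDAC3 stayed within 0.16 of their siControl values. The gap between the differences of HDAC2 and HDAC1 was 0.67.

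The HDAC2 difference stayed under 1.5-fold, and 4.48% of kept genes had a positive difference at least as large. Bright genes scattered less. When named genes were split by mean level into 4 bins of equal size, 95% of the genes in the brightest bin, which holds HDAC2, had an absolute difference under 0.57. In the next bin, which holds KAT2B, that bound was 0.70. The values of HDAC2 were below 16, the log2 ceiling of a 16-bit scanner. However, 107 probes in siYY1 and 112 in siControl had deposited values above 16. The deposited scale can thus exceed that ceiling and does not show whether HDAC2 was saturated. HDAC1 has processed pseudogenes that its probes might share, so its single value is uncertain.

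**Figure D2:**
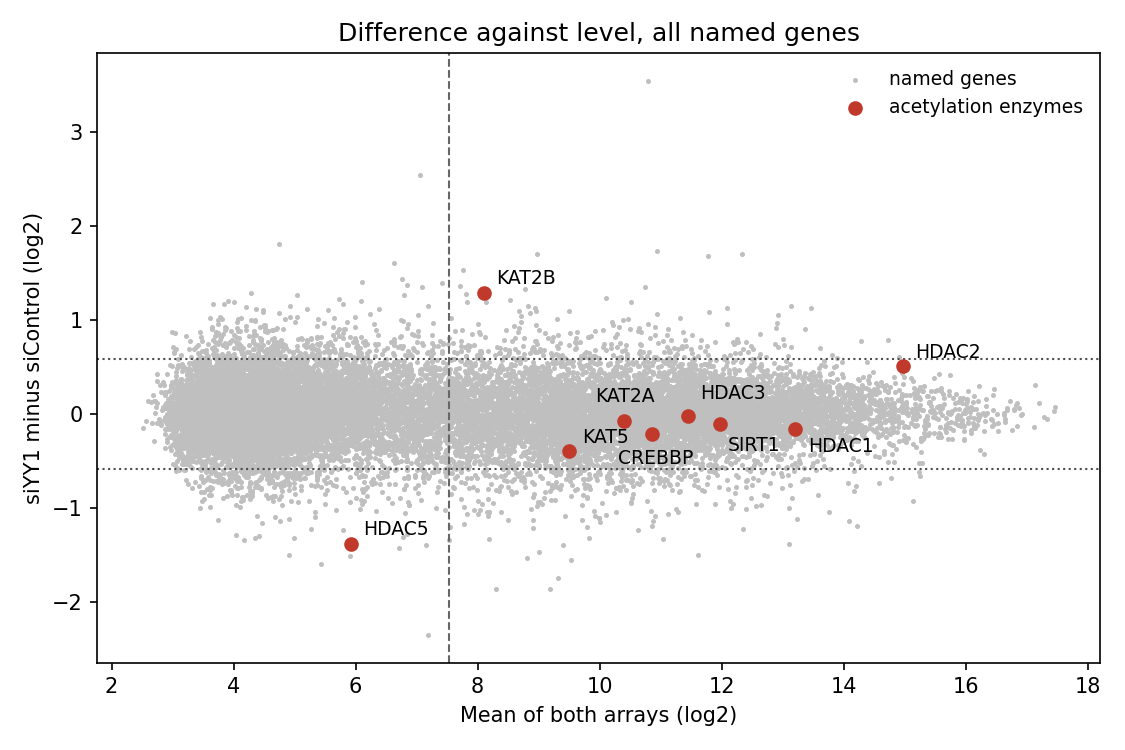
Difference of siYY1 minus siControl (y axis, log2) against the mean of both arrays (x axis, log2) for 17687 named genes (grey points) and the 9 measured acetylation enzymes (red, labelled). Dotted lines mark 1.5-fold and the dashed line the filter value of 7.54. KAT2B (1.29) and HDAC5 (-1.38) lie outside the dotted lines, and the other 7 lie between them.

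HDAC5 is a class IIa deacetylase, a weakly catalytic repressor of MEF2 factors that leaves the nucleus when phosphorylated and bound by 14-3-3 proteins. It was at 5.24 in siYY1, against 6.62 in siControl, a difference of -1.38 or 2.60-fold lower. Both values were under the filter of 7.54 and may lie near background, so the fold is uncertain. Among the 8843 genes under the filter, 7, HDAC5 included, had a negative difference of this size or larger, 0.339% were at least 2-fold lower and 8.94% were past 1.5-fold in either direction.

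SIRT1 is the NAD-dependent deacetylase of the set and acts on histones as well as on p53 and other regulators. It was at 11.92 in siYY1, against 12.03 in siControl, a difference of -0.11. A negative difference this large was found in 34.7% of kept genes, so SIRT1 stood near the middle of the spread.

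Every other measured enzyme of the same families gave a smaller difference than KAT2B and HDAC5, and of them KAT8 and HDAC10 were past 1.5-fold. All 11 other acetyltransferases measured were kept, 6 higher and 5 lower, with a median of 0.01. KAT8, or MOF, which acetylates lysine 16 of histone H4, was the only one past 1.5-fold, at 9.20 in siYY1 and 9.88 in siControl, a difference of -0.67. The next lowest was the steroid receptor coactivator gene NCOA2 (-0.25). The highest were KAT6B (0.22) and KAT7 (0.17), MYST enzymes like KAT5 and KAT8.

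Of 7 other zinc-dependent deacetylases, 4 were kept and all 4 were higher, by 0.05 for HDAC7, 0.08 for HDAC6, 0.10 for HDAC4 and 0.22 for HDAC8. HDAC4 and HDAC7 are class IIa enzymes like HDAC5, and so is HDAC9, which lay under the filter at 7.31 in siYY1 and 7.41 in siControl (difference -0.10). HDAC10, a polyamine deacetylase, was also under it on both arrays, at 5.33 in siYY1 and 6.02 in siControl (difference -0.69), as was the class IV enzyme HDAC11 (difference -0.13). Of 6 other sirtuins, 4 were kept, with 3 lower, 1 higher and a median of -0.27. The mitochondrial desuccinylase gene SIRT5 was the lowest (-0.53), followed by SIRT7 (-0.32) of the nucleolus. SIRT3 differed by -0.22 and SIRT2, mainly a cytoplasmic tubulin deacetylase, by 0.17.

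The lists that follow hold the partners of the enzymes, and each count of genes past 1.5-fold can be read against the 6.82% of kept genes. Counts by direction can be read against the 4454 higher and 4390 lower of all kept genes. Over all these lists and the other family members together, each gene counted once, 122 genes were kept, of which 58 were higher and 64 lower. Past 1.5-fold there were 5 higher and 4 lower, or 7.38%, a share near that of all kept genes.

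SAGA and ATAC, the complexes built around KAT2A or KAT2B, had 22 kept subunits, 7 higher and 15 lower, with a median of -0.16. Of these, 3 were at least 1.5-fold lower and 0 at least 1.5-fold higher. SUPT3H, a histone-fold subunit of SAGA, was at 7.20 in siYY1 and 8.36 in siControl, a difference of -1.16. Its siYY1 value lay under the filter value and was not shown to be above background. ATXN7L1, a paralog of the deubiquitinase module anchor ATXN7, differed by -0.84, and TAF12, shared with TFIID, by -0.65. The highest were ENY2 (0.51), a subunit of the deubiquitinase module, and SUPT20H (0.25). The HAT-module adaptors that hold KAT2A or KAT2B, namely TADA2A (-0.03), TADA2B (-0.26), TADA3 (0.14) and SGF29 (-0.15), were named after their values were seen and were all under 1.5-fold.

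The TIP60 complex, built around KAT5, had 15 kept subunits, 9 higher and 6 lower, with a median of 0.09. Over all kept genes, 4454 were higher and 4390 lower. The 3 subunits past 1.5-fold were all higher and all just over the line. EPC1, an enhancer of polycomb protein that anchors KAT5 in the complex, was at 10.63 in siYY1 and 10.03 in siControl, a difference of 0.61. Its paralog EPC2 was at 10.75 in siYY1 and 10.15 in siControl, a difference of 0.60. MORF4L2, a paralog of the chromodomain subunit MORF4L1, differed by 0.60, and like MORF4L1 it has processed pseudogenes, so its value is uncertain. The lowest were the ATPase gene RUVBL1 (-0.33) and the YEATS domain gene YEATS4 (-0.19). KAT5 itself was lower by 0.40, so the catalytic subunit and both EPC paralogs lay on opposite sides of 0.

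SIN3, NuRD and CoREST carry HDAC1 and HDAC2. In SIN3, 13 subunits were kept, 9 higher and 4 lower, with a median of 0.04. The PHD finger gene ING1 was the only one past 1.5-fold, at 9.60 in siYY1 and 8.97 in siControl (0.64), while its paralog ING2 had the lowest value (-0.52). ARID4B (0.28) and SINHCAF (-0.10) were next at each end. In NuRD, 10 subunits were kept, 3 higher and 7 lower, with a median of -0.11 and 0 past 1.5-fold. The methyl-CpG binding domain genes MBD3 (-0.38) and MBD2 (-0.34) were the lowest, and GATAD2B (0.30) and the ATPase gene CHD4 (0.15) the highest.

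In the CoREST and MiDAC list, 10 were kept, 5 higher and 5 lower, with a median of -0.05 and 0 past 1.5-fold. The highest were PHF21A (0.42) and the scaffold gene RCOR1 (0.38), and the lowest TRERF1 (-0.34) and ZMYM2 (-0.31). For the HDAC3 partners, 3 genes were measured. TBL1XR1, which recruits the proteasome to the NCOR complex, was higher by 0.58, just under the 1.5-fold line at 0.585, while TBL1X differed by 0.02 and GPS2 by -0.14.

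**Figure D3:**
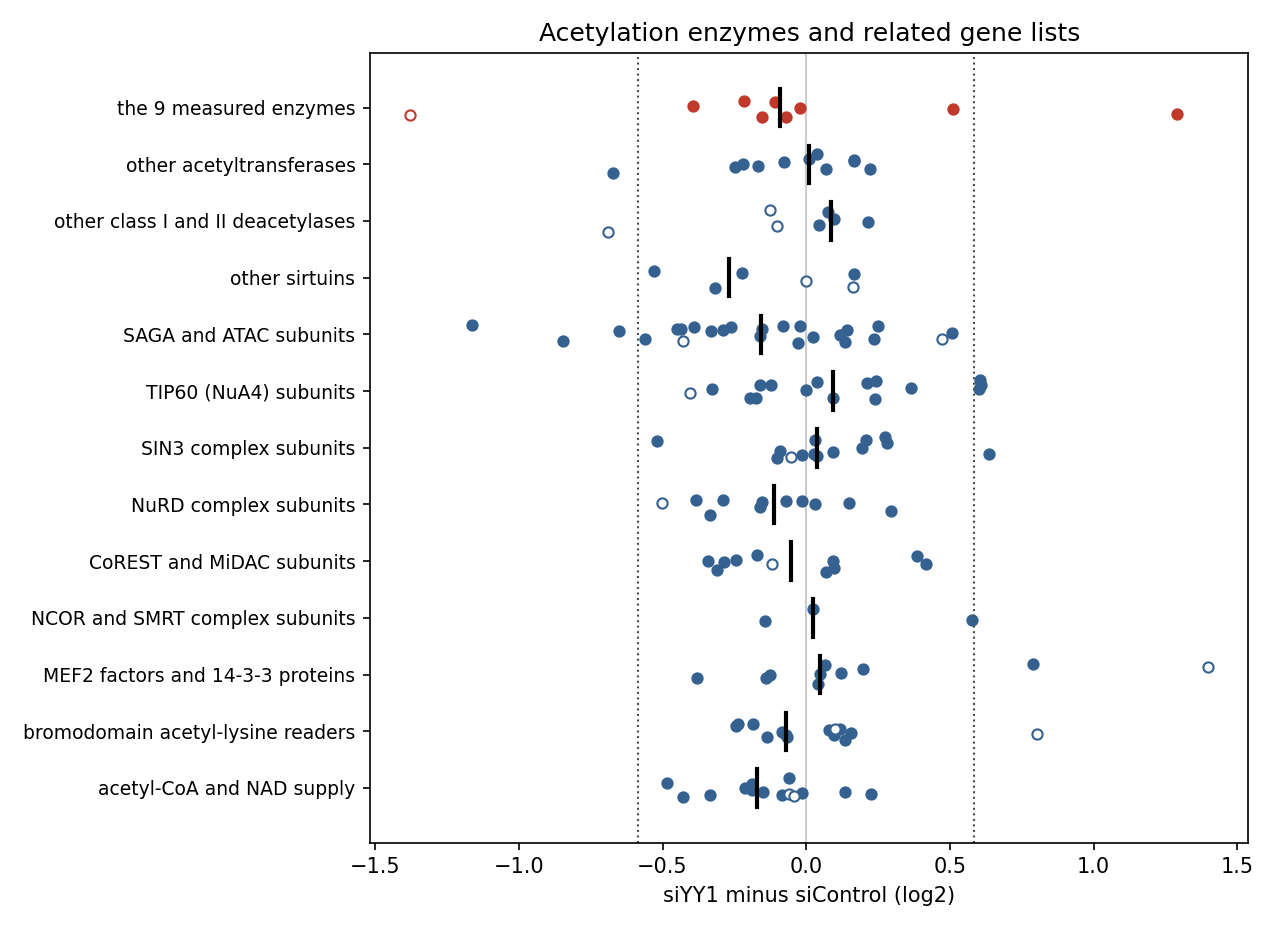
Difference of siYY1 minus siControl (x axis, log2) for the 9 measured enzymes (red) and 12 related gene lists (blue), 1 point per gene, filled where the gene was kept and open where it was under the filter. Black bars are medians of kept genes and dotted lines mark 1.5-fold. The row of other class I and II deacetylases also holds HDAC11, which is of class IV. The SAGA and ATAC points reach furthest to the left among the blue filled points, down to -1.16, and 3 TIP60 subunits sit just past the right line at about 0.60.

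Among MEF2 factors, which class IIa deacetylases repress, and 14-3-3 proteins, which hold those deacetylases in the cytoplasm, 9 were kept, 6 higher and 3 lower, with a median of 0.05. The 14-3-3 gamma gene YWHAG was the only one past 1.5-fold, at 11.80 in siYY1 and 11.01 in siControl, a difference of 0.79, followed by YWHAB (0.20). The lowest were YWHAZ (-0.38) and YWHAH (-0.14). Both YWHAZ values exceeded 16 and may be saturated, so the size of the YWHAZ difference is uncertain. MEF2C, named after its value was seen, was at 6.80 in siYY1 and 5.40 in siControl, both under the filter. Its difference of 1.40 is therefore as uncertain as that of HDAC5, and it had the opposite sign. The kept MEF2 factors, MEF2A (-0.13) and MEF2D (0.07), also named after their values were seen, were both under 1.5-fold.

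Bromodomain proteins read the acetyl mark. Of their 12 kept genes, 5 were higher and 7 lower, the median was -0.07 and 0 were past 1.5-fold, with ATAD2 (-0.24) and BRD9 (-0.24) lowest and BPTF (0.16) and BRPF3 (0.13) highest. CECR2, named after its value was seen, was under the filter at 4.50 in siYY1 and 3.69 in siControl, a difference of 0.80. Acetyl-CoA and NAD are the cosubstrates of acetyltransferases and sirtuins. Of 12 kept genes of their metabolism, 10 were lower and 2 higher, with a median of -0.17 and 0 past 1.5-fold. Over all kept genes, 4390 of 8844 were lower. The acetyl-CoA synthetase gene ACSS2 (-0.49) and the NAD salvage gene NAPRT (-0.43) were the lowest. The pyruvate dehydrogenase subunit genes PDHB (0.23) and DLD (0.13) were the highest. The genes of other subunits of that complex, DLAT (-0.21) and PDHA1 (-0.19), named after their values were seen, were lower. Of the common reference genes, ACTB differed by 0.11 and GAPDH, above 16 on both arrays, by -0.03.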

How the data were processed

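The authors deposited 1 summarized log2 value per probe set for each array. The unit was read from the values, which ran from 2.32 to 17.97 in siYY1 and from 2.46 to 17.90 in siControl. The sources used here give no software, normalization, genome build or log base, and folds take the values as plain log2. Sorted by size, the values of one array lay within 0.153 of those of the other, and whether distributions were matched before deposit is not stated. Groups were taken from the labels.

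Probes were named through GEO's platform annotation, with symbols updated by Entrez identifier from RefSeq (0 changed). Of 21448 probes, the annotation gave 17709 a single symbol, 0 several symbols and 3739 none. Probes of a gene were averaged (20 genes had several). A fold of 1.5 replaced a test. Motifs were searched in RefSeq promoter windows, the first window of each gene. The enzymes and gene lists were chosen with earlier results of these data known. The text names the enzymes, the 2 kept genes at each end of a list, kept genes past 1.5-fold, kept markers of other cell types and ACTB and GAPDH. Genes outside this rule are marked, apart from colon epithelial markers and other members of the deacetylase, sirtuin and HDAC3 partner lists. The steps were tested on simulated data. Alternatives were other folds (1.3 and 2), no filter, a filter at the 60th percentile of named genes, a filter on the dimmer array, quantile normalization, median centring, lowess centring (fraction 0.3) and the brightest probe. Python 3.11.15, numpy 2.4.6, pandas 2.3.3, statsmodels 0.14.6 and matplotlib 3.10.9 were used.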

Additional observations from a re-analysis of the deposited data

How the results depend on the processing

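Each of the 9 enzymes has 1 probe, so filters and the choice of probe cannot alter its difference. Under the 3 alternatives on scaling, all 27 differences had the direction reported and lay on the same side of the 1.5-fold line. KAT2B was between 1.28 and 1.29 there, HDAC5 between -1.42 and -1.39, HDAC2 near 0.50 and KAT5 between -0.41 and -0.36. KAT2B was not kept with the filter at the 60th percentile or with the filter on the dimmer array, so the count of kept enzymes past 1.5-fold, 1 as reported, was 0 under both. That count was 2 with no filter, which let HDAC5 in, and 3 at 1.3-fold. Among all kept genes, 603 were past 1.5-fold, 1733 past 1.3-fold and 84 past 2-fold, and without a filter 1394 of 17687 genes were past 1.5-fold. Of the subunit lists, SAGA and ATAC had 3 kept genes past 1.5-fold as reported, 1 with the filter at the 60th percentile and 2 with the filter on the dimmer array, and had 8 past 1.3-fold and 1 past 2-fold. TIP60 had 3 as reported, 3 past 1.3-fold and 0 past 2-fold, and the HDAC3 partners had 0 as reported and 1 under quantile normalization and lowess centring. No paired analysis was possible because each group had 1 array. For the same reason no array could be left out. Another log base was listed as an alternative and not run, since the values did not point to one. Precision is limited by having 1 array per group.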
